A study of Mus musculus with 27 samples.

Results

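Immunoglobulin kappa variable (*Igkv*) segments were followed in RNA-Seq counts from scrapings of the distal ileal epithelium of 27 male C57BL/6 mice. They were taken as genes whose symbol starts with Igkv and which held 20 or more counts summed over the 27 mice. Of 160 *Igkv* symbols in the count tables, 89 met this limit. The mice, euthanized at postnatal day 56, had been gavaged every 4 d for 28 d with sesame oil vehicle or with TCDD, a dioxin that binds the aryl hydrocarbon receptor, with 3 mice in each of the 9 groups. The 4 lower doses were 0.01, 0.03, 0.1 and 0.3 µg/kg, and the 4 higher ones 1, 3, 10 and 30 µg/kg. The study housed mice together, and the cage of each mouse is not in the sample labels.

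An antibody light chain of the kappa type is made from one variable segment, one joining segment (*Igkj*) and the constant gene *Igkc*. Each developing B cell joins one V segment to one J segment, so that the V segment a B cell or plasma cell transcribes is shared by its whole clone. The gut wall holds many plasma cells that secrete dimeric IgA, whose heavy chain is encoded by *Igha* and whose subunits are linked by the J chain (*Jchain*). Epithelial cells carry this IgA into the lumen with the polymeric immunoglobulin receptor (*Pigr*). *Igkv* counts in a scraping therefore come from lymphoid cells taken along with the epithelium, and fewer such cells and less RNA per cell cannot be told apart in these bulk samples.

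The segments lie on both strands of chromosome 6 (GRCm38), 35 of the 89 on the plus strand and 54 on the minus strand, and belong to 17 families by the number after Igkv. Of the 89, 87 are annotated as functional V genes and 2 as pseudogenes. They held 63861 of the 64067 counts on *Igkv* symbols (99.7%). Of the 71 symbols below the limit, 34 had no count in any mouse, 32 of them pseudogenes, and 37 had 1 to 19 counts. The segments just inside the limit were *Igkv8-34* (23 counts), *Igkv12-40* (24) and *Igkv4-73* (25), and those just outside were *Igkv4-69* (19), *Igkv1-132* (19) and *Igkv4-77* (17). Counts per segment ran from 23 to 5630 over the 27 mice, with a median of 315, and 34 segments had a count in every mouse.

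The counts of each mouse were led by one of 7 segments, and the 3' ends of their germline V exons are shown because the last bases of the V segment begin the third complementarity-determining region, where clones differ most. The last 90 bases of each annotated transcript are given 5' to 3' in the sense of the gene. Capitals mark the stretch from the conserved cysteine codon to the annotated end of the segment. *Igkv4-53*, *Igkv3-5* and *Igkv1-133* follow because they were nearly lost at 30 µg/kg TCDD.
Igkv8-27: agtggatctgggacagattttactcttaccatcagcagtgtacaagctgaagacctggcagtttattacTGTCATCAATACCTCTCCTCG
Igkv6-15: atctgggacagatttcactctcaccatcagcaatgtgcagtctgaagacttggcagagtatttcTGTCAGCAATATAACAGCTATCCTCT
Igkv6-23: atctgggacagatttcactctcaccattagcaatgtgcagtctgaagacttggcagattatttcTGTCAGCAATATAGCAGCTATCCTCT
Igkv5-48: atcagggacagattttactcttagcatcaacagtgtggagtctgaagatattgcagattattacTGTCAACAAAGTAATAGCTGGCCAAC
Igkv8-21: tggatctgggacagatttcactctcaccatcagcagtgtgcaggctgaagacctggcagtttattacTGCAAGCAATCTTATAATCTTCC
Igkv5-43: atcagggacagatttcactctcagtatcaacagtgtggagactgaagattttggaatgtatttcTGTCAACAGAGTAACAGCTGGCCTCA
Igkv9-124: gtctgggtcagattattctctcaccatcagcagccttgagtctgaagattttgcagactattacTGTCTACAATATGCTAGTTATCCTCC
Igkv4-53: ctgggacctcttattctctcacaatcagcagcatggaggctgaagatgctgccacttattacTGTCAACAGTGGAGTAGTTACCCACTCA
Igkv3-5: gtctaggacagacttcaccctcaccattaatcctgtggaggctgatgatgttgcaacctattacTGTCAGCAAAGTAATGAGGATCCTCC
Igkv1-133: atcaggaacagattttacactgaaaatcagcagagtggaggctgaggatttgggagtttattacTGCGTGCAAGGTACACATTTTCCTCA

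*Igkv8-27* lies at chr6:70171809-70172270, *Igkv6-15* at chr6:70406469-70406992, *Igkv6-23* at chr6:70260409-70260955, *Igkv5-48* at chr6:69726573-69727138 and *Igkv8-21* at chr6:70314895-70315472, all on the minus strand. *Igkv4-53* is at chr6:69648824-69649363 on the same strand, whereas *Igkv3-5* at chr6:70663275-70663895 and *Igkv1-133* at chr6:67724902-67725661 are on the plus strand. Relatives within a family are close in sequence. Over the last 300 bases, *Igkv6-15* and *Igkv6-23* were 94.7% identical, *Igkv5-43* and *Igkv5-39* 91.3%, and *Igkv8-27* and *Igkv8-21* 87.7%. A stretch of 50 bases found in a segment also occurred in another *Igkv* transcript for a median of 24.4% of stretches, with 22 segments sharing none and 13 sharing over 50%. Reads that align to several segments are not counted, so levels of segments with much shared sequence, such as *Igkv5-43* (51.2% of stretches shared) and *Igkv3-5* (51.4%), are uncertain. *Igkv4-53* (39.6%), *Igkv1-133* (36.0%) and *Igkv6-23* (35.6%) also lay above the median. *Igkv6-15* shared 15.8%, *Igkv8-27* 8.36% and *Igkv5-48* none.

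Total counts on genes ran from 12.26 to 17.14 M per mouse, of which 456 to 4423 fell on the segments. The library indexes in the file names show that each index was used up to 2 times. Which use came first is not given, and it was inferred from the order of the samples, which rises with dose. The first use took 16 mice, those from vehicle to 0.3 µg/kg and mouse 41 at 1 µg/kg, and the 11 other mice (43 and 44 at 1 µg/kg and all mice at 3, 10 and 30 µg/kg) had the second. Doses up to 0.3 µg/kg were thus compared with vehicle within the first use, and 1 µg/kg held mice of both. At 3, 10 and 30 µg/kg an effect of dose against vehicle and one of index use cannot be told apart, and values within the second use are given beside the results.

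The summed *Igkv* level was lower in mice given 10 and 30 µg/kg TCDD. Vehicle mice had 258, 191 and 185 CPM (counts scaled to library size after trimmed-mean normalization). At 10 µg/kg the level was 77.5, 115 and 69.0 CPM. At 30 µg/kg it was 92.9, 35.3 and 84.8 CPM. All 6 lay below all 3 vehicle mice. The mean fell from 211 ± 40.3 CPM (SD, n = 3) with vehicle to 87.3 ± 24.6 CPM at 10 µg/kg, 2.42-fold lower, and to 71.0 ± 31.2 CPM at 30 µg/kg, 2.98-fold lower.

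At lower doses the summed level overlapped vehicle except at 3 µg/kg. Means were 219 ± 46.5 CPM at 0.01 µg/kg, 212 ± 41.4 at 0.03 µg/kg, 183 ± 48.8 at 0.1 µg/kg and 184 ± 44.6 at 0.3 µg/kg (SD, n = 3 each). At 3 µg/kg the mice had 134, 172 and 164 CPM, each below the lowest vehicle mouse. At 1 µg/kg the mouse of the first index use had 249 CPM, and the mice of the second had 80.8 and 129 CPM, so the mice of this dose split by index use. Within the second use, the 3 mice at 10 µg/kg and the 3 at 30 µg/kg all lay below the 3 mice at 3 µg/kg (157 ± 19.8 CPM), and the mean at 10 µg/kg was 0.557 of that at 3 µg/kg. No test was run on the sum, because the segments were chosen with earlier results known.

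**Figure D1:**
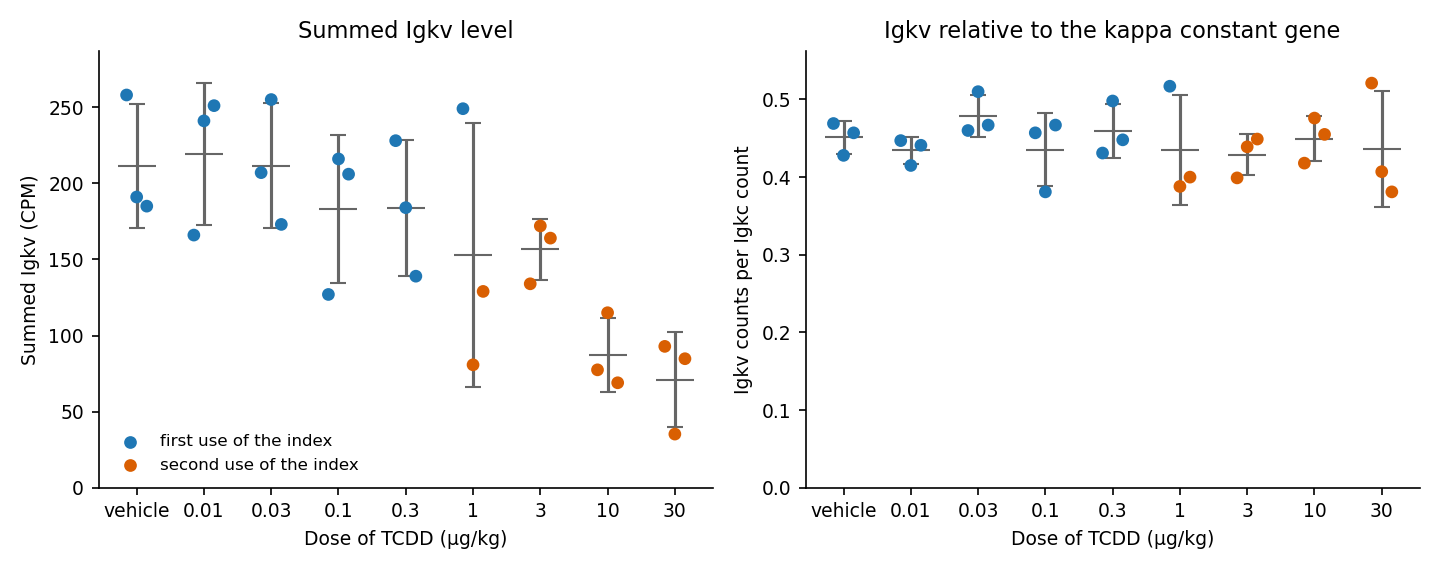
Summed *Igkv* level in CPM (left) and *Igkv* counts per *Igkc* count (right) by dose of TCDD in µg/kg; points are mice, coloured by use of the library index, and bars show the mean ± SD (n = 3). The sum falls to 71.0 CPM at 30 µg/kg, while the ratio to *Igkc* stays between 0.381 and 0.521 in every mouse.

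The constant gene *Igkc* moved with the segments. *Igkc* averaged 467 ± 74.8 CPM with vehicle, 193 ± 45.7 at 10 µg/kg and 163 ± 69.3 at 30 µg/kg (SD, n = 3). It was lower than with vehicle by a log2 fold change of -1.27 (SE 0.31, edgeR quasi-likelihood adjusted p = 0.0202) at 10 µg/kg and of -1.52 (SE 0.31, edgeR adjusted p = 0.0017) at 30 µg/kg. The ratio of *Igkv* to *Igkc* counts lay between 0.381 and 0.521 in all 27 mice, with a mean of 0.451 ± 0.0208 for vehicle and 0.436 ± 0.0747 at 30 µg/kg (SD, n = 3). The *Igkj* segments, short exons with few counts, summed to 125 counts in the 3 vehicle mice, 62 at 10 µg/kg and 52 at 30 µg/kg.

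*Igha*, *Jchain* and *Mzb1*, genes of IgA-secreting plasma cells, fell at the same doses. *Igha* fell from 1331 ± 210 CPM to 609 ± 110 CPM at 10 µg/kg (log2 fold change -1.13, SE 0.3, edgeR adjusted p = 0.0317) and to 480 ± 190 CPM at 30 µg/kg (-1.47, SE 0.3, edgeR adjusted p = 0.00157). *Jchain* fell from 249 ± 69.6 CPM to 107 ± 22.3 CPM (-1.22, SE 0.33, edgeR adjusted p = 0.0375) and 81.6 ± 35.2 CPM (-1.61, SE 0.34, edgeR adjusted p = 0.00195). *Mzb1*, a chaperone of antibody assembly in the endoplasmic reticulum, fell from 4.51 ± 0.805 CPM to 1.78 ± 0.583 CPM (-1.32, SE 0.31, edgeR adjusted p = 0.0152) and 1.68 ± 0.811 CPM (-1.43, SE 0.31, edgeR adjusted p = 0.00288). For all 4 genes, *Igkc* included, each mouse at 10 and 30 µg/kg lay below each vehicle mouse. So did each mouse at 3 µg/kg, also of the second index use, for *Igkc* (364 ± 27.5 CPM), *Igha* (954 ± 52.8) and *Jchain* (182 ± 12.8). *Mzb1* (3.18 ± 0.613 CPM) overlapped vehicle at 3 µg/kg, and edgeR called none of the 4 genes at that dose. At 30 µg/kg the calls of *Igkc*, *Igha* and *Jchain* held without any 1 mouse. At 10 µg/kg *Igkc* was not called without vehicle mouse 2, mouse 57 or mouse 59 (edgeR adjusted p = 0.0872, 0.0791 and 0.115), and *Igha* and *Jchain* were called only with all 6 mice or without mouse 58. *Pigr* had 4238 ± 378 CPM with vehicle and 4011 ± 371 CPM at 30 µg/kg (-0.08, SE 0.11, edgeR adjusted p = 0.678).

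Against 3 µg/kg, within the second index use, these genes had changes of the same sign that did not pass the test. The log2 difference of *Igkc* was -0.91 (edgeR adjusted p = 0.477) at 10 µg/kg and -1.16 (edgeR adjusted p = 0.0636) at 30 µg/kg. At 30 µg/kg it was -0.99 for *Igha* (edgeR adjusted p = 0.0992), -1.16 for *Jchain* (edgeR adjusted p = 0.0853) and -0.93 for *Mzb1* (edgeR adjusted p = 0.17). With index use as a covariate, which is set by the 1 µg/kg group only, *Igkc* had log2 changes of -0.41 (edgeR adjusted p = 0.84) and -0.66 (edgeR adjusted p = 0.568) at 10 and 30 µg/kg.

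**Figure D2:**
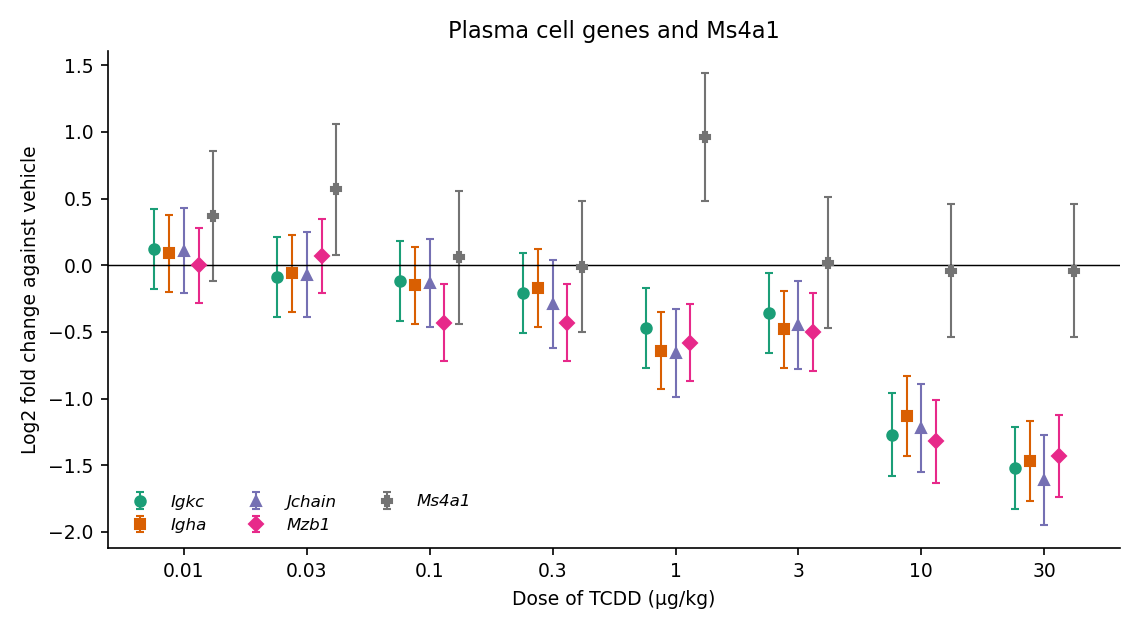
Log2 fold change against vehicle with its SE (edgeR, n = 3 mice per group) for *Igkc*, *Igha*, *Jchain*, *Mzb1* and the B cell gene *Ms4a1*, by dose of TCDD in µg/kg. The first 4 genes lie between -1.61 and -1.13 at 10 and 30 µg/kg, whereas *Ms4a1* lies at -0.04 at both doses.

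Of 18 plasma cell genes listed, 17 were tested, and edgeR called 3 lower at 10 µg/kg (*Jchain*, *Mzb1* and *Cd38*), and 4 lower and 1 higher at 30 µg/kg. Of all genes tested, 0.771% were called lower at 10 µg/kg, and 3.98% lower and 5.42% higher at 30 µg/kg. The list had a median log2 change of -0.37 at 30 µg/kg (0.02 over all genes tested), and 12 of the 17 were not called. Besides *Jchain* and *Mzb1*, those that fell were *Irf4*, a transcription factor of plasma cells (-0.85, edgeR adjusted p = 0.0421), and *Cd38*, an ectoenzyme (-2.08, edgeR adjusted p = 3.11e-05). *Cd38* was also lower at 1 and 3 µg/kg, where the segments had 1 call each. *Ell2*, an elongation factor used in antibody secretion, rose at 30 µg/kg (0.77, edgeR adjusted p = 0.00911). Many genes of this list are also expressed by epithelial cells with a large secretory pathway. Of 7 heavy chain constant genes tested, 4 fell at 30 µg/kg, namely *Igha*, *Ighg1* (-1.78, edgeR adjusted p = 0.0466), *Ighg2b* (-2.82, edgeR adjusted p = 0.000368) and *Ighg2c* (-3.67, edgeR adjusted p = 0.000403). *Ighm*, the IgM heavy chain, had a change of 0.05 (edgeR adjusted p = 0.955). Of 6 lambda light chain genes tested, *Iglc1* (-1.85, edgeR adjusted p = 0.0331) and *Iglc2* (-1.17, edgeR adjusted p = 0.00815) fell. Lambda constant genes took 4.58 to 20.7% of light chain constant CPM across the 27 mice.

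None of 12 B cell genes, such as *Ms4a1*, a surface protein of B cells, passed the edgeR test at 30 µg/kg, 0 had an unadjusted p under 0.05 and DESeq2 called 0. Their median log2 change was 0.17, and their summed level was 107 ± 54.6 CPM with vehicle against 122 ± 29.5 at 30 µg/kg (SD, n = 3), with overlapping mice. Whether *Igkc* and the B cell genes differed in their change was not tested. Among genes of the germinal centre, where B cells mature, *S1pr2* fell at 30 µg/kg (-1.44, edgeR adjusted p = 0.00862), the one edgeR call of 6 tested, and DESeq2 called 2. At 10 µg/kg *Rgs13* rose (1.47, edgeR adjusted p = 0.0423), where 1.76% of all genes were called higher. Of 8 genes of IgA transport and homing, *Tnfsf13b*, the B cell survival factor BAFF, fell at 30 µg/kg (-1.02, edgeR adjusted p = 0.0058), and 0 were called at 10 µg/kg. At 30 µg/kg, the dose of the *S1pr2* and *Tnfsf13b* calls, 3.98% of all genes were called lower.

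Markers of other cells of the scraping were read beside these results. Of 8 T cell genes, *Cd5* was called lower at 10 µg/kg by edgeR and DESeq2 (-1.11, edgeR adjusted p = 0.0184), with a list median of -0.37. At this dose edgeR called 0.771% of all genes lower. At 30 µg/kg neither tool called any of the 8, 1 had an unadjusted p under 0.05 and the list median was -0.32. Of 8 ileal enterocyte genes, *Fabp6*, which binds bile acids in the cell, fell at 30 µg/kg (-0.94, edgeR adjusted p = 0.012). *Slc10a2*, which takes them up, rose (0.75, edgeR adjusted p = 0.0339). At this dose 3.98% of all genes were called lower and 5.42% higher. The sum of the enterocyte list was 12064 ± 309 CPM with vehicle and 12247 ± 1946 CPM at 30 µg/kg. The sum of 6 smooth muscle genes ran from 25.0 to 110 CPM with vehicle, from 45.5 to 394 at 10 µg/kg and from 36.2 to 345 at 30 µg/kg, with median log2 changes of 2.03 at 10 µg/kg and 1.21 at 30 µg/kg. None of the 6 was called by edgeR or DESeq2 at either dose, but all 6 had an unadjusted p under 0.05 at 10 µg/kg and 0 had one at 30 µg/kg. Smooth muscle genes were also high at 0.01 and 0.3 µg/kg, where the summed *Igkv* level overlapped vehicle. Their sums there were 164 ± 45.3 and 169 ± 98.8 CPM, with median log2 changes of 1.51 and 1.52. The part of the depth of scraping in the *Igkv* level was not tested.

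Single segments were tested in the fit of 16741 genes, which 66 of the 89 segments entered after the filter on low counts. Calls needed a fold change of 1.5 or more in size and an adjusted p no higher than 0.05. From 0.01 to 0.3 µg/kg, edgeR and DESeq2 called 0 segments, as edgeR called 0% of genes lower at these doses. The edgeR fit gave 8, 7, 9 and 10 segments an unadjusted p under 0.05 at 0.01, 0.03, 0.1 and 0.3 µg/kg. At 1 µg/kg edgeR called 1 segment, *Igkv4-61* (background 0.191% of genes lower), and at 3 µg/kg 1, *Igkv4-53* (background 0.46%). It called 6 segments at 10 µg/kg (*Igkv4-61*, *Igkv5-39*, *Igkv1-133*, *Igkv3-5*, *Igkv4-53* and *Igkv19-93*), where 0.771% of genes were called lower, and 18 at 30 µg/kg, where 3.98% were. At 10 µg/kg, 1 to 4 segments were called with 1 mouse left out, the fewest without mouse 59. Every segment called was lower than vehicle.

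The fall went beyond the segments called. The median log2 change of the 66 segments tested was -1.50 at 10 µg/kg and -1.93 at 30 µg/kg, against 0.00 and 0.02 for all genes tested, and 62 and 63 of the 66 were below zero. At 0.01 µg/kg the median was 0.13, with 28 of 66 below zero. A segment high in vehicle mice alone could enter the fit through them. The 23 segments left out were added in a fit without the filter. This fit still holds the 66, so its counts over the 89 cannot show how much such entry matters. There, 16 of 89 segments were called at 10 µg/kg and 30 of 89 at 30 µg/kg, all lower, against 0.58 and 2.54% of all genes. The median over the 89 was -1.44 and -1.62, and 78 and 76 of the 89 were below zero. The 23 segments left out by the filter summed to 2.21 to 7.85 CPM with vehicle. They summed to 1.25 to 4.70 CPM at 10 µg/kg and 1.30 to 4.08 CPM at 30 µg/kg, both overlapping vehicle. An omnibus test of any difference among the 9 groups passed an adjusted p of 0.05 for 14 of 66 segments, against 9.53% of all genes. Among the 14, *Igkv2-137*, *Igkv16-104*, *Igkv12-98* and *Igkv9-124* were called at no single dose. Within the second index use, edgeR called 0 of 66 segments at 10 µg/kg against 3 µg/kg (0% of genes lower, 8 segments with an unadjusted p under 0.05), with a median log2 difference of -0.80. It called 0 of 66 at 30 against 3 µg/kg (0.245% of genes lower, 19 with an unadjusted p under 0.05), with a median of -1.27. With index use as a covariate, 0 segments were called at 10 µg/kg and 1 at 30 µg/kg.

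*Igkv4-53* had the lowest adjusted p of the segments at 30 µg/kg. Its counts in the vehicle mice were 34, 129 and 54, against 6, 7 and 19 at 3 µg/kg, 13, 3 and 5 at 10 µg/kg, and 2, 0 and 1 at 30 µg/kg. The vehicle mice lay above every mouse of these 3 doses. They also lay above every mouse at 0.03 µg/kg (22, 13 and 9 counts) and at 1 µg/kg (25, 17 and 28). Mice at 0.01, 0.1 and 0.3 µg/kg overlapped vehicle. The log2 change was -2.79 (SE 0.69, edgeR adjusted p = 0.0387) at 3 µg/kg and -3.3 (SE 0.74, edgeR adjusted p = 0.0119) at 10 µg/kg. At 30 µg/kg the edgeR adjusted p was 0.000302, and the 217 vehicle counts were 67.0 times the 3 counts at that dose after scaling to depth (95% counting interval 22.6 to 327).

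Other segments were close to absent at 30 µg/kg. *Igkv3-5*, even in the vehicle mice with 28, 21 and 27 counts, had 0, 0 and 1 at 30 µg/kg (edgeR adjusted p = 0.00129), a count ratio of 70.4 (95% counting interval 12.3 to 2817). Its mice also lay below vehicle at every dose from 0.03 µg/kg (log2 change -1.39) to 10 µg/kg (-3.32), and overlapped vehicle at 0.01 µg/kg. *Igkv2-112* had 18, 25 and 3 counts with vehicle and none in the 3 mice at 30 µg/kg, at least 14.2-fold lower when 3 counts over the group are taken as the limit (edgeR adjusted p = 0.00568). *Igkv1-133* had 64, 7 and 160 counts with vehicle and 1, 0 and 0 at 30 µg/kg (edgeR adjusted p = 0.0073). Its vehicle level was not shared by the low doses, since the 3 mice at 0.01 µg/kg had 0, 8 and 2 counts. *Igkv4-61* had 59, 3 and 18 counts with vehicle, and without vehicle mouse 2 (59 counts) it was not called at 1, 10 or 30 µg/kg (edgeR adjusted p = 0.177, 0.357 and 0.263). Its groups overlapped at 10 and 30 µg/kg.

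Among the segments with most counts, *Igkv6-23* fell and its close relative *Igkv6-15* was not called. *Igkv6-23* had 15.8, 16.9 and 5.4 CPM with vehicle and 1.43, 0.309 and 1.47 CPM at 30 µg/kg, with every treated mouse lower. The means were 12.7 ± 6.33 and 1.07 ± 0.658 CPM, a log2 change of -3.55 (SE 0.82, edgeR adjusted p = 0.00445). *Igkv6-15* had 7.25, 13.4 and 10.9 CPM with vehicle and 8.31, 2.32 and 8.14 CPM at 30 µg/kg, overlapping, a log2 change of -0.75 (SE 0.61, edgeR adjusted p = 0.436). The difference between the pair was not tested.

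The leading segment *Igkv8-27* had 31.8, 10.8 and 8.37 CPM with vehicle and 8.88, 4.25 and 9.53 CPM at 30 µg/kg. Its log2 change was -1.17 (SE 0.56, edgeR adjusted p = 0.153), and the groups overlapped. *Igkv8-21* fell outside the call at 30 µg/kg, with a log2 change of -2.17 (SE 0.77, edgeR adjusted p = 0.0527) although all 3 mice were below vehicle. *Igkv10-96*, 10.4 ± 4.52 CPM with vehicle and 3.81 ± 2.28 CPM at 30 µg/kg, was called (log2 change -1.43, SE 0.46, edgeR adjusted p = 0.0328), but it had 3.79 ± 1.26 CPM at 3 µg/kg, and its log2 difference between 30 and 3 µg/kg was 0.01 (edgeR adjusted p = 0.997).

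**Figure D3:**
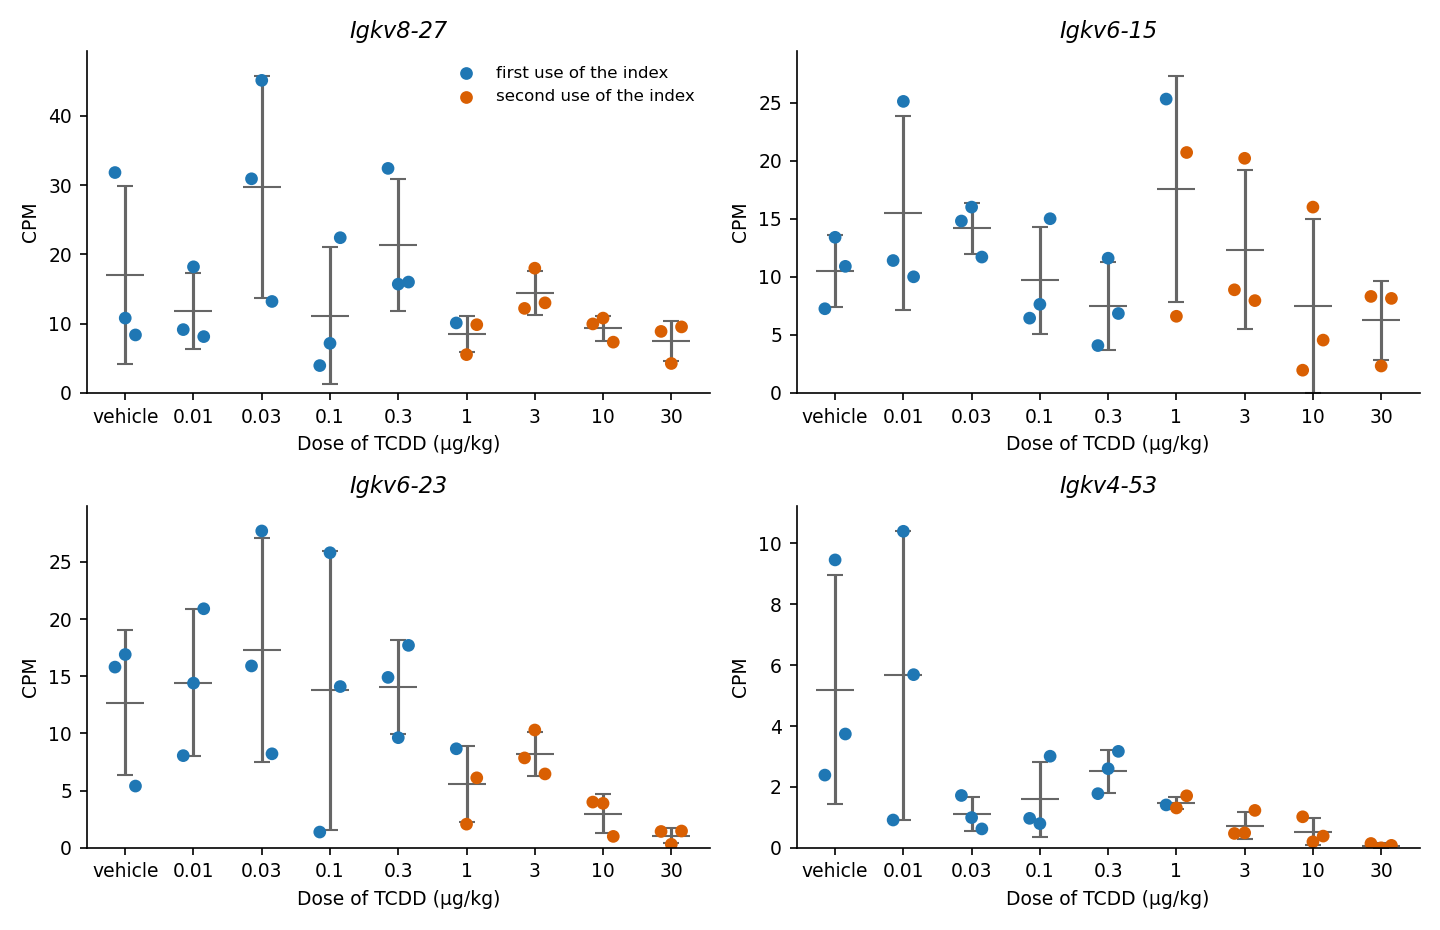
Level in CPM of *Igkv8-27*, *Igkv6-15*, *Igkv6-23* and *Igkv4-53* by dose of TCDD in µg/kg; points are mice, coloured by use of the library index, and bars show the mean ± SD (n = 3). *Igkv6-23* and *Igkv4-53* reach 1.07 and 0.0749 CPM at 30 µg/kg, while *Igkv8-27* and *Igkv6-15* at that dose overlap vehicle.

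The other segments called at 30 µg/kg were spread over families. *Igkv5-39* (4.97 ± 0.855 CPM with vehicle, 1.05 ± 0.921 CPM at 30 µg/kg), *Igkv14-100* (2.25 ± 0.267 and 0.37 ± 0.29 CPM) and *Igkv19-93* (4.43 ± 2.11 and 0.874 ± 0.665 CPM) had all mice at 30 µg/kg below vehicle. *Igkv14-100* did not follow dose. Its mice lay below vehicle at 0.01, 0.3, 1 and 3 µg/kg, but at 10 µg/kg it had 1.77 ± 1.48 CPM and overlapped vehicle. *Igkv9-120*, *Igkv6-25*, *Igkv3-12*, *Igkv1-110* and *Igkv4-70* had log2 changes from -3.57 to -2.20. *Igkv17-127*, *Igkv6-17* and *Igkv1-135* were also called. Of the 18 calls, 6 were kept when any 1 of the 6 mice of the comparison was left out, those of *Igkv4-53*, *Igkv3-5*, *Igkv2-112*, *Igkv1-133*, *Igkv6-23* and *Igkv1-135*. Without mouse 67, which had the fewest *Igkv* counts, 7 segments were called.

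The repertoire was uneven in every mouse. The 5 segments with most counts held 32.8% of the counts over the 27 mice and the 12 with most held 54.0%, and the same 12 came first per kb of exon. *Igkv8-27* led in 10 mice, *Igkv6-15* in 5, *Igkv6-23* and *Igkv5-48* in 4 each, *Igkv8-21* in 2, and *Igkv5-43* and *Igkv9-124* in 1 each. The leading segment held 6.81 to 17.7% of the counts of its mouse. By family, *Igkv6* held a mean of 18.0% of the counts over the 27 mice, *Igkv8* 17.7%, and *Igkv4*, with 22 segments, 11.8%. At 30 µg/kg the *Igkv6* family held 15.4 ± 3.67% and *Igkv8* 19.0 ± 0.284%, against 17.8 ± 5.41% and 16.6 ± 3.26% with vehicle (SD, n = 3). The ranges of both families overlapped between these groups.

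Some mice carried large shares of segments that were rare in most others. *Igkv9-124* held 13.7% of the counts of a mouse at 0.03 µg/kg and 12.6 and 8.99% in mice at 0.3 µg/kg, against a median of 0.643% over the 27 mice. *Igkv14-130* held 6.52% (130 counts) in a mouse at 0.01 µg/kg, 55.1 times its median share. *Igkv1-133* held 5.99% in a vehicle mouse against a median of 0.12%, and *Igkv12-98* 5.44% in a mouse at 0.1 µg/kg against 0.236%. The highest share of 24 segments was at least 10 times their median share, and 22 segments held 5% or more of the counts of some mouse. Such mice were found in vehicle and at low and high doses.

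**Figure D4:**
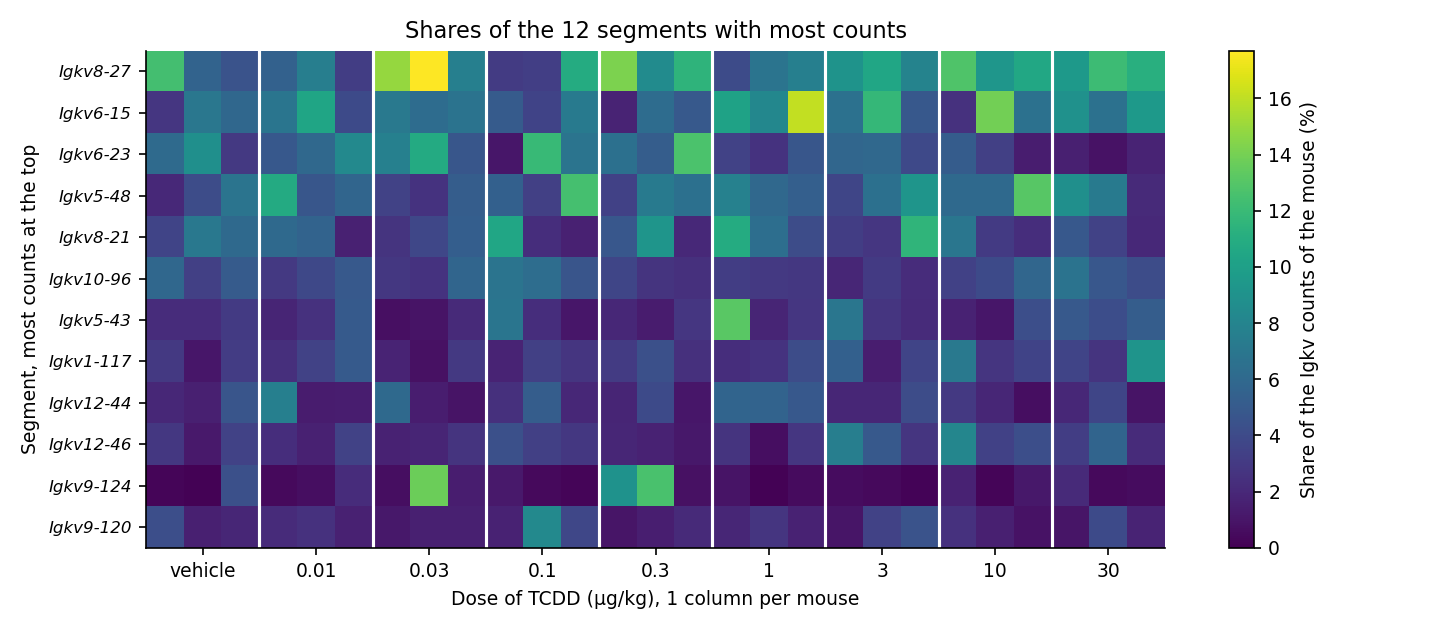
Share of the *Igkv* counts of each mouse (%) held by the 12 segments with most counts, 1 column per mouse, in order of the dose of TCDD in µg/kg, with white lines between groups. *Igkv8-27* is high in most columns (up to 17.7%), and *Igkv9-124* reaches 5% or more in 3 mice only (up to 13.7%).

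The spread of each repertoire was measured as its effective number, the number of equally used segments that would give the same Shannon entropy. It was 39.7, 39.6 and 38.9 in the vehicle mice, a mean of 39.4 ± 0.439 (SD, n = 3). All mice at 0.3 µg/kg (31.9 ± 1.63), 3 µg/kg (33.9 ± 0.645), 10 µg/kg (33.4 ± 1.09) and 30 µg/kg (33.8 ± 1.44) were lower, and the mice at 0.01, 0.03, 0.1 and 1 µg/kg overlapped vehicle. The ratio to vehicle did not fall further from 0.3 to 30 µg/kg, while the summed level did. Mice with as many counts as the vehicle mice ranged more widely, from 26.7 to 42.1 at 0.03 µg/kg. With the counts of each mouse thinned to 456, the lowest total, the number was 36.6 ± 0.231 with vehicle and 32.7 ± 2.37 at 30 µg/kg, still with all 3 mice below. The 5 leading segments of a mouse held 32.3 ± 2.15% with vehicle and 39.2 ± 2.54% at 30 µg/kg.

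Fewer segments were detected at 10 and 30 µg/kg, but not at equal depth. With 1 or more counts taken as detection, vehicle mice had 78.7 ± 4.16 of the 89 segments, mice at 10 µg/kg 67.7 ± 3.06 and mice at 30 µg/kg 66.7 ± 4.16 (SD, n = 3), with all 6 below vehicle. Thinned to 456 counts, the expected numbers were 60.0 ± 3.17, 58.6 ± 1.72 and 59.0 ± 2.60, and the groups overlapped. A loss of segments was thus not detectable at equal depth. Of the 89 segments, 2 had no count in the 3 vehicle mice, 1 or 2 had none at each dose up to 3 µg/kg, and 9 had none at 10 and 9 at 30 µg/kg. These numbers are not at equal depth, since the 3 vehicle mice held 8935 segment counts and the 3 mice at 10 and at 30 µg/kg held 3631 and 2794.

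**Figure D5:**
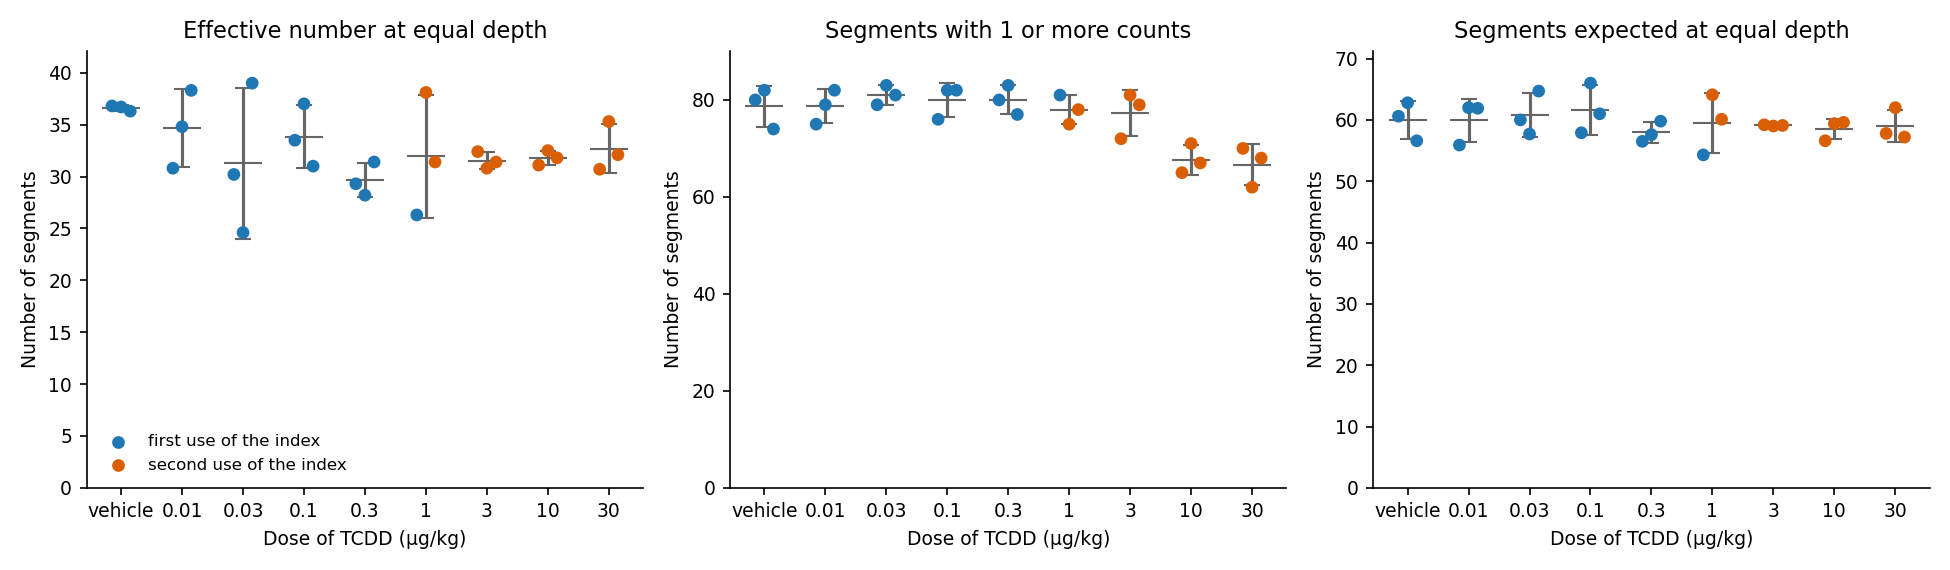
Effective number of segments thinned to 456 counts (left), segments with 1 or more counts (middle) and segments expected at 456 counts (right) by dose of TCDD in µg/kg; points are mice, coloured by use of the library index, and bars show the mean ± SD (n = 3). The middle panel drops to 66.7 segments at 30 µg/kg, and the right panel stays near 60.0.

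Repertoires of mice given the same dose were about as alike as those of mice given different doses. The part of the repertoire that a pair of mice shared, the sum over segments of the lower of both shares, had a median of 64.4% for the 27 pairs of the same dose (57.1 to 71.3%) and 63.7% for the 324 other pairs (50.7 to 75.5%). Pairs of a vehicle mouse and a mouse at 30 µg/kg shared 57.6 to 68.5%, with a median of 63.6%. Pairs share mice, so no test was made. Segments on the plus strand, the strand of *Igkc*, held 16.8 to 33.6% of the counts of a mouse.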

How the data were processed

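Per the labels and their processing notes, the authors aligned reads to GRCm38 with TopHat2 2.1.0 and counted them per Ensembl gene with HTSeq 0.6.1. They deposited raw counts, 1 table per mouse. Counting options, strand and read length are not given in the sources used here. Reads with several alignments are left out, and reads across the V-J join or with somatic mutations may not align, which was not tested. Symbols, positions and transcripts came from GENCODE M21. Genes kept by filterByExpr were tested in edgeR 4.0.16 (TMM, quasi-likelihood fit of 9 groups, Benjamini-Hochberg adjustment within each dose), which was tested on simulated data. The simulation gave every gene the same spread, so it does not cover segments that vary more between mice. p-values treat mice as independent. The segments, gene lists and tests were chosen with earlier results of these data known. Named segments are the 12 with most counts, those leading a mouse and those called at a dose (at most 12 per dose with values); of the other lists, up to 4 called genes at 30 µg/kg, beside the constant genes. *Igkv4-77*, *Igkv14-130*, *Igkv12-98*, other segments at the limit or with a single high share, *Cd5* and *Rgs13* were named after their values were seen. Alternatives were DESeq2 1.42.0, other normalizations, no filter, no fold limit, index use as a covariate, other indices of spread, other segment sets and leaving out each mouse; the comparison with 3 µg/kg and the thinned effective number were chosen after seeing the data. Promoter sequences of the segments were not used here. No pair of libraries of one dose differed by as little as sampling noise in a chi-square over genes. Values per degree of freedom were 83.1, 50.8 and 21.0 for the pairs at 30 µg/kg, and 7.65 to 25.1 for pairs of the other groups. The single result of 1 listed gene is not reported here.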

Additional observations from a re-analysis of the deposited data

How the results depend on the processing

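Without the filter on low counts, 1, 4, 3, 16 and 30 segments were called at 0.3, 1, 3, 10 and 30 µg/kg. Of all genes in that fit, 0.58 and 2.54% were called lower at 10 and 30 µg/kg. This share was not taken at 0.3, 1 and 3 µg/kg, so the counts there have no background. DESeq2 called 0 at 1 µg/kg. With index use as a covariate, 0, 0, 0 and 1 were called at 1, 3, 10 and 30 µg/kg. Against 3 µg/kg, 0 were called at 10 and 0 at 30 µg/kg, and the summed level at 10 µg/kg was 0.557 of that at 3 µg/kg. Leaving out each mouse in turn gave 0 to 1, 0 to 1, 1 to 4 and 7 to 19 calls at 1, 3, 10 and 30 µg/kg, with 7 without mouse 67. Under the index covariate, log2 changes of *Igkc* were 0.04, 0.50, -0.41 and -0.66 at 1, 3, 10 and 30 µg/kg, those of *Igha* 0.37, -0.27 and -0.62 and those of *Jchain* 0.59, -0.18 and -0.57 at 3, 10 and 30 µg/kg. Against 3 µg/kg, 10 and 30 µg/kg gave -0.91 and -1.16 for *Igkc*, -0.65 and -0.99 for *Igha*, and -0.77 and -1.16 for *Jchain*; *Igkv1-133* at 10 µg/kg (0.02) and *Igkv10-96* at 30 µg/kg (0.01) changed sign. The cause was not tested.

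Leaving out each mouse, the ranges at 0.01, 0.03, 0.1 and 10 µg/kg were, for *Igkc*, 0.00 to 0.30, -0.19 to 0.05, -0.38 to 0.11 and -1.47 to -1.13, for *Igha* -0.04 to 0.24, -0.19 to 0.11, -0.27 to 0.02 and -1.25 to -0.99, and for *Jchain* -0.05 to 0.35, -0.20 to 0.18, -0.30 to 0.12 and -1.39 to -0.97. The inverse Simpson index gave ratios to vehicle of 0.712, 0.804, 0.758 and 0.809 at 0.3, 3, 10 and 30 µg/kg. The raw number detected gave 1.02, 0.983, 0.86 and 0.847, and the annotated V genes alone 0.98 at 3 µg/kg. Leaving out each mouse moved the ratio of detected segments at 3 µg/kg between 0.958 and 1.01. The other normalizations and the fold limit kept every count of calls within 1.5 times. No paired analysis was possible because the labels give each mouse its own number and the groups share none. With 456 to 4423 segment counts per mouse, single segments of few counts carry large counting error.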
